A study of Homo sapiens with 16 samples.

Results

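The genes described here encode ATF4, CHOP (gene symbol *DDIT3*) and 4 further stress-related basic leucine zipper (bZIP) transcription factors, together with 3 of their targets and the lipoprotein receptor gene *VLDLR*. The 10 genes were chosen by name, with earlier results of these data known, and looked up by Entrez identifier. The same holds for the lists of related genes, so counts beside shares of all genes are descriptions and not tests. All 10 genes were listed in both tables, among 13559 genes in the first and 14024 genes in the second. The cells were LN229, an established human glioblastoma (GBM) line, and RNA was sequenced from 16 libraries in 8 groups of 2. In the first experiment, cells in regular culture (complete medium) were compared with cells in ischemic culture, which the study made from low glucose, glutamine and serum together with low oxygen. In the second experiment, regular and ischemic cultures were each treated with the vehicle DMSO, with VX745, an inhibitor of the kinase p38α, or with MK25, an inhibitor of its downstream kinase MK2. All groups came from the same line, and doses and times are not given in the labels. The labels do not say that the 2 libraries of a group came from separate cultures. The p-values therefore rest on the spread between libraries, which may be technical. For each gene this spread was drawn towards that of genes with similar expression.

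ATF4 is the central transcription factor of the integrated stress response. When cells lack amino acids, accumulate unfolded proteins or meet other stress, kinases phosphorylate the translation factor eIF2α, which slows general protein synthesis while favoring translation of the *ATF4* mRNA. ATF4 then pairs with other bZIP proteins such as C/EBP family members, and it binds C/EBP-ATF response elements (CAREs) near genes of amino acid synthesis, amino acid transport and the stress response, including *DDIT3*. Because much of this control is translational, mRNA levels do not report the amount or activity of the proteins.

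The deposited values are log2 normalized CPM (read counts scaled to a common library size), so a difference of 1 is a 2-fold difference. Each library held between 20122017 and 37562668 reads on listed genes, and a gene at the floor of detection, taken as 3 reads, had a log2 value from −2.71 to −2.16. The 10 genes with the most reads took 5.66% to 6.45% of the reads in ischemic libraries and 4.23% to 4.65% in regular libraries, and the part of this in the results was not tested. The hypoxia genes *CA9*, *ADM*, *NDRG1* and *PDK1* rose at least 2-fold in ischemic culture (limma adjusted p under 0.05) in each of the 4 comparisons. By this rule 8.56% to 11.3% of all genes rose. All 10 markers of glioma or mesenchymal cells were listed, although *GFAP* had only 21 to 55 reads per library. In the first experiment 2 of these markers rose and 3 fell in ischemic culture by the same rule, against 11.3% and 9.10% of all genes. The log2 fold changes of the 10 markers ran from −3.11 to 1.38. The neural stem cell factor *SOX2* had a mean log2 value of 3.36 in ischemic and 6.47 in regular culture, and the intermediate filament gene *VIM* 12.75 and 11.37. In DMSO 1 marker rose and 2 fell, against 9.03% and 8.11% of all genes, which is near these shares. The part of these marker changes in the results was not tested. Of 7 markers of immune, endothelial or epithelial cells, *CD68* alone was listed, with 546 to 2093 reads, and it was 0.77 higher in ischemic culture in the first experiment and 0.94 higher in DMSO on the log2 scale. The labels name LN229 cells alone, and which cells held the *CD68* RNA was not tested. In bulk RNA a change in the number of cells of a type and a change in RNA per cell cannot be told apart.

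Short stretches of promoter are shown for the genes in which the core of the CARE was found, since this is the element through which ATF4 with a C/EBP partner acts on DNA. RefSeq windows (GRCh38.p14) from 250 bases before to 50 bases after each annotated start were searched on both strands for TGATGNAA, in which N is any base. Of the 9 members with a window, 3 held the letters. The lines below give 30 bases of the gene's own strand with the matching letters in capitals, first for these members and then for 4 other target genes, so that they can be compared.
ATF3, chr1:212565205-212565234, plus strand: aaaggtcaggaTGATGGAAggctgtcatat
CEBPG, chr19:33374060-33374089, plus strand: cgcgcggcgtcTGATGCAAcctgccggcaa
CHAC1, chr15:40953251-40953280, plus strand: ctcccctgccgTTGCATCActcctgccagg
ASNS, chr7:97872458-97872487, minus strand: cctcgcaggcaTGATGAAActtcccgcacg
JDP2, chr14:75427995-75428024, plus strand: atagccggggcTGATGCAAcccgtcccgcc
AARS1, chr16:70289675-70289704, minus strand: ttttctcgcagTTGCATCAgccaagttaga
CARS1, chr11:3057407-3057436, minus strand: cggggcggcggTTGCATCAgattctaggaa

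In *CHAC1*, *AARS1* and *CARS1* the match lies on the opposite strand and is therefore read here as TTGCATCA. The same core was found in 8 of 26 other target genes with a window (30.8%) and in 4.46% of 27305 genes. The cyclic AMP response element TGACGTCA was in the windows of no member and of 2.25% of all genes. The C/EBP letters TTNNGCAA, which can overlap a CARE, were found in 2 members (*ATF3* and *ATF5*) and in 12.7% of all genes. These matches are letters in a window and not measured binding sites, and elements outside the windows were not searched.

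The first question was how the genes responded to ischemia without an inhibitor. In the first experiment 7 of 10 genes rose at least 2-fold with an adjusted p under 0.05 (*ATF4*, *ATF3*, *DDIT3*, *CEBPG*, *TRIB3*, *NUPR1* and *VLDLR*), where 11.3% of all genes rose by this rule. None of the 10 fell, where 9.10% of all genes fell. In DMSO-treated cells, which are separate libraries, 7 rose and none fell, against 9.03% and 8.11% of all genes. The counts are from limma, and the genes were the same 7. The median log2 fold change of the 10 genes was 1.66 in the first experiment and 1.73 in DMSO, while that of all genes was −0.01 in both. Values of every library are plotted below for each gene.

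**Figure D1:**
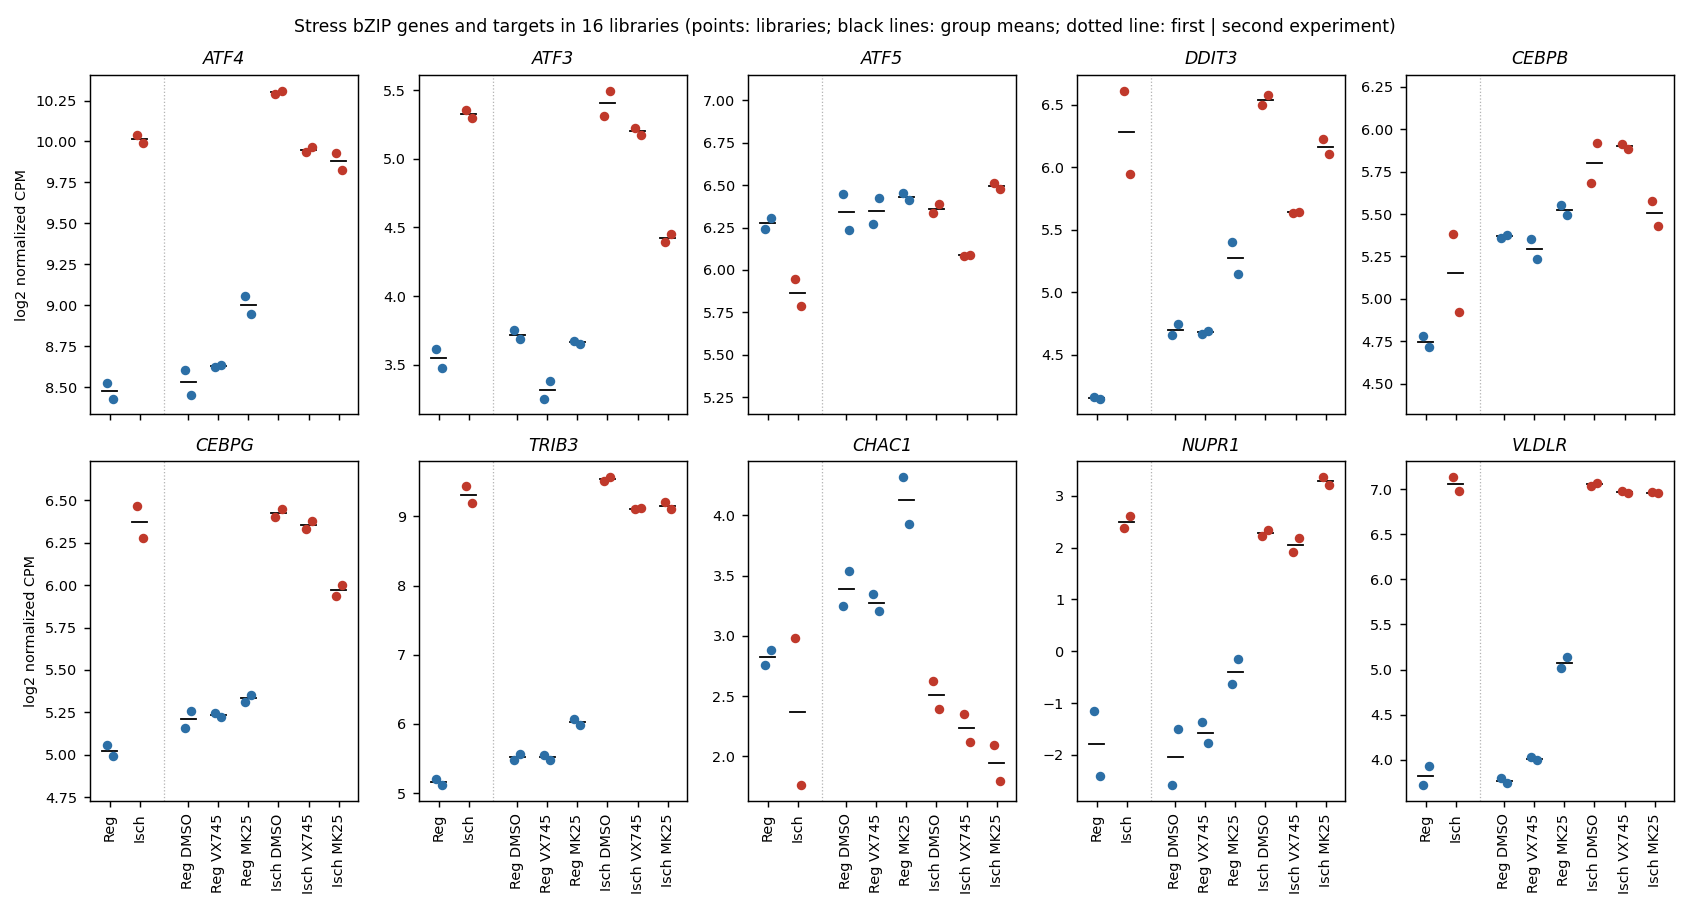
The log2 normalized CPM of each of the 10 genes is plotted for the 16 libraries, with blue points for regular culture, red points for ischemic culture and black lines for group means. The y axes span different ranges, of at least 2 log2 units, and the 2 groups left of the dotted line are the first experiment. Ischemic libraries lie above regular libraries for *ATF4*, *ATF3*, *DDIT3*, *CEBPG*, *TRIB3*, *NUPR1* and *VLDLR*, and below them for *CHAC1* in the second experiment.

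Among the transcription factors, *ATF4* itself (identifier 468, chromosome 22, 39520559 to 39522686 of GRCh38) had log2 values of 10.04 and 9.99 in the ischemic and 8.52 and 8.43 in the regular libraries of the first experiment. In DMSO it had 10.29 and 10.31 in ischemic and 8.60 and 8.45 in regular culture. All 4 ischemic libraries were thus more than 1 log2 unit above all 4 regular libraries. The rise was 2.90-fold in the first experiment (log2 fold change 1.54, SE 0.07, adjusted p = 1.56e-09) and 3.41-fold in DMSO (log2 fold change 1.77, SE 0.06, adjusted p = 6.59e-14). Of the 31-base words in the *ATF4* transcripts, 26.4% are shared with other genes, mostly the pseudogenes *ATF4P3* and *ATF4P4*. How the authors counted such reads is not given in the sources used here, so the level is uncertain to that extent.

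*DDIT3* encodes CHOP, a partner of C/EBP proteins that is linked to cell death in prolonged stress (identifier 1649, chromosome 12, 57516588 to 57520517). The first experiment gave 6.61 and 5.94 in ischemic and 4.17 and 4.15 in regular culture, and DMSO-treated cells gave 6.49 and 6.58 against 4.65 and 4.75. The ischemic libraries of the first experiment differed from each other by 0.67, which is far less than their distance to the regular libraries. *DDIT3* rose 4.35-fold (log2 fold change 2.12, SE 0.16, adjusted p = 1.45e-07) and, in DMSO, 3.57-fold (1.84, SE 0.08, adjusted p = 1.15e-12). Its exons share 355 bases with *MARS1* on the other strand, and the library kits do not mark strand, so reads from this stretch cannot be told apart.

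*ATF3*, a stress-induced bZIP factor downstream of ATF4 (identifier 467, chromosome 1, 212565407 to 212620777), had 5.36 and 5.29 in ischemic and 3.62 and 3.47 in regular culture in the first experiment. In DMSO it had 5.31 and 5.50 against 3.75 and 3.69. The rises were 3.43-fold (log2 fold change 1.78, SE 0.10) and 3.22-fold (1.69, SE 0.09). *CEBPG*, a C/EBP family member that pairs with ATF4 (identifier 1054, chromosome 19, 33373709 to 33382686), had 6.47 and 6.28 against 5.06 and 4.99, and in DMSO 6.40 and 6.45 against 5.16 and 5.26. It rose 2.55-fold and 2.32-fold (log2 fold changes 1.35 and 1.22, SE 0.08 and 0.06), with adjusted p = 3.25e-08 and 9.74e-12. Both genes had no overlapping exon and no shared 31-base word in the annotation.

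The other 2 transcription factors did not pass the 2-fold limit. *CEBPB*, a C/EBP protein of stress and inflammatory responses (identifier 1051, chromosome 20, 50190583 to 50192690), had 5.38 and 4.92 in ischemic and 4.78 and 4.72 in regular culture, and 5.69 and 5.92 against 5.36 and 5.38 in DMSO. The groups did not overlap in either experiment, and the log2 differences were 0.40 (SE 0.13, adjusted p = 0.0119) and 0.43 (SE 0.08, adjusted p = 9.34e-05). *ATF5* encodes a bZIP factor of the amino acid and mitochondrial stress responses (identifier 22809, chromosome 19, 49928906 to 49933935). It was lower in ischemic culture in the first experiment, and its direction in DMSO could not be told. It had 5.95 and 5.79 in ischemic and 6.24 and 6.31 in regular culture in the first experiment, a log2 difference of −0.41 (SE 0.08, adjusted p = 5.37e-04). In DMSO it had 6.33 and 6.39 against 6.45 and 6.24, and the groups overlapped, with a log2 difference of 0.02 and a 95% interval from −0.13 to 0.16. The *ATF5* exons share 565 bases with *NUP62*, and the *CEBPB* exons share 231 bases with *CEBPB-AS1*, each on the other strand. The difference of *ATF5* between the experiments was not tested.

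The targets fell apart into a pair that rose and one that did not. *TRIB3*, a pseudokinase that binds ATF4 and dampens its activity (identifier 57761, chromosome 20, 380760 to 397559), had 9.43 and 9.19 in ischemic and 5.21 and 5.11 in regular culture. In DMSO it had 9.51 and 9.57 against 5.48 and 5.56. It rose 17.8-fold (log2 fold change 4.15, SE 0.08, adjusted p = 1.28e-12) and 16.2-fold (4.02, SE 0.06, adjusted p = 2.90e-19). *NUPR1*, a small chromatin-associated stress protein (identifier 26471, chromosome 16, 28532708 to 28538974), was near the floor in regular culture. It had 141 and 128 reads in the ischemic and 9 and 3 reads in the regular libraries of the first experiment, and 113 and 147 against 3 and 7 reads in DMSO. By reads per library size it was 24.2 times higher in the first experiment (exact 95% counting interval 13.6 to 47.5) and 27.1 times higher in DMSO (14.5 to 57.1), and these intervals cover counting error only. The log2 fold changes, which contain the offset that the deposited values carry, were 4.28 (SE 0.37) and 4.32 (SE 0.32), with adjusted p = 5.94e-07 and 1.70e-09. The *NUPR1* exons share 909 bases with *ENSG00000289754* on the same strand and 31.3% of their 31-base words with other genes, so its reads are uncertain to that extent.

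*CHAC1*, which encodes an enzyme that breaks down glutathione and is a known target of ATF4 (identifier 79094, chromosome 15, 40953471 to 40956512), did not rise. The ischemic libraries of the first experiment had 216 and 70 reads (log2 values 2.98 and 1.76), and the regular libraries had 165 and 205 reads (2.76 and 2.89). One ischemic library lay above and the other below both regular libraries, and the log2 difference was −0.45 (SE 0.29, adjusted p = 0.179). Without the first ischemic library it was −1.06 and passed the test, and without the second it was 0.16. In DMSO the ischemic libraries had 2.63 and 2.39 and the regular libraries 3.25 and 3.54, so that the groups did not overlap. This difference, −0.88 (SE 0.16, adjusted p = 8.31e-05), was under the 2-fold limit, which it passed when either the first ischemic or the first regular DMSO library was left out (−1.0 and −1.03).

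*VLDLR*, the very low density lipoprotein receptor gene (identifier 7436, chromosome 9, 2621787 to 2660056), had 7.14 and 6.99 in ischemic and 3.71 and 3.92 in regular culture. In DMSO it had 7.04 and 7.08 against 3.79 and 3.74. The 4 ischemic libraries all lay between 6.99 and 7.14, and *VLDLR* rose 9.47-fold (log2 fold change 3.24, SE 0.09, adjusted p = 3.10e-11) and 9.77-fold (3.29, SE 0.06, adjusted p = 1.48e-17). Its exons share 1100 bases with *ENSG00000286670* and 260 bases with *VLDLR-AS1*, both on the other strand. Reads from these stretches cannot be told apart.

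The wider pathway was described with lists of related genes, by counts and medians. Of 33 other ATF4 or CHOP targets, 32 were listed (*FGF21* was not). In ischemic culture 29 rose and 1 fell in the first experiment (median log2 fold change 2.03), and 28 rose and 1 fell in DMSO (median 1.76), where 11.3% and 9.03% of all genes rose and 9.10% and 8.11% fell. The stress cytokine gene *GDF15* had log2 fold changes of 6.14 and 4.99, and *DDIT4*, an inhibitor of mTORC1, had 4.64 and 4.56. *ALDH1L2*, a mitochondrial folate enzyme, rose by 4.00 in DMSO, and *VEGFA*, the angiogenic factor, rose by 4.85 in the first experiment. The study names *VEGFA* among hypoxia-responding genes, so a rise of a listed gene need not pass through ATF4 or CHOP. Ischemic culture joined low oxygen with low nutrients, and their parts in these rises cannot be told apart. Of 9 genes for eIF2α, its kinases, phosphatases and their regulators, *PPP1R15A* (GADD34, a phosphatase subunit that reverses eIF2α phosphorylation) rose in both, by 3.21 and 3.08. *EIF2AK4* (GCN2, the kinase that senses amino acid lack) fell in the first experiment by 1.24. In DMSO no gene of these 9 fell by the 2-fold rule, and the lowest log2 fold change among them was −0.54. Of the other bZIP genes, 1 of 15 listed rose and 2 fell in the first experiment, and 2 of 16 rose and 1 fell in DMSO, which is near those shares of all genes. *XBP1*, whose mRNA is spliced by IRE1α in the unfolded protein response, rose by 2.82 and 2.43, and *CEBPA* fell by 1.59 and 1.21.

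**Figure D2:**
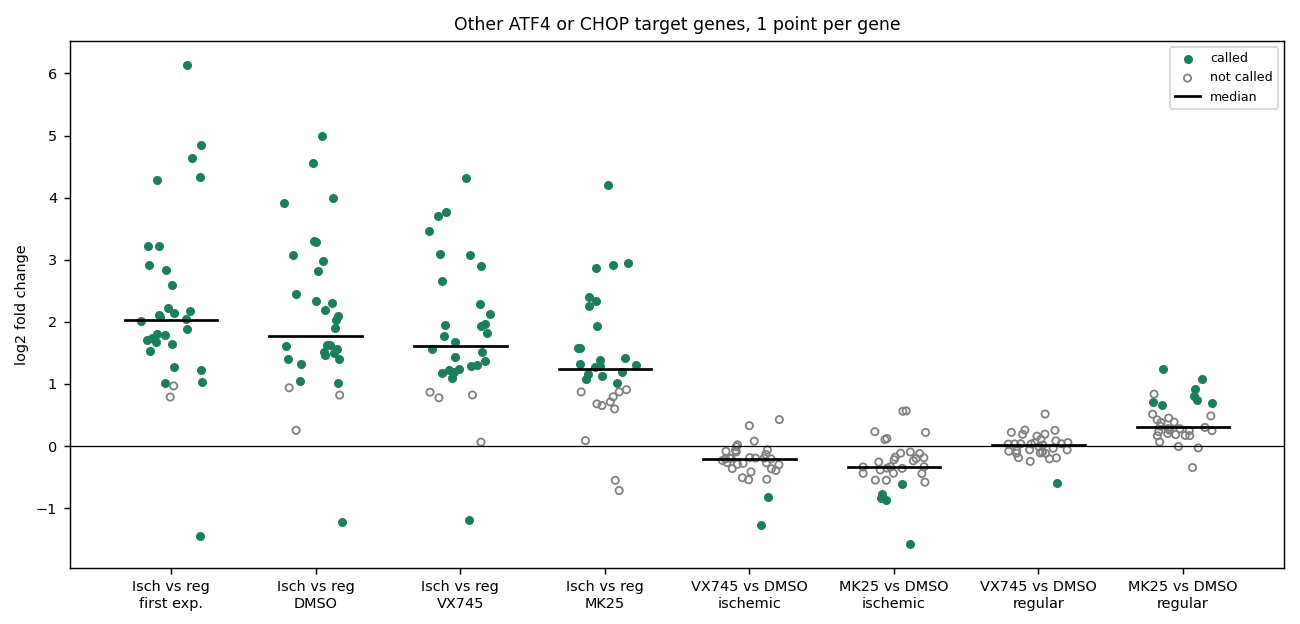
The log2 fold change of each of the 32 listed other ATF4 or CHOP targets is plotted for 8 comparisons, with filled points for genes that passed the test, open points for the rest and black lines for medians. The medians are 2.03, 1.76, 1.61 and 1.24 for ischemia in the first experiment, DMSO, VX745 and MK25, and they lie between −0.33 and 0.31 for the inhibitors.

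The second question was how the ischemic response looked in the presence of each inhibitor. In VX745-treated cells 6 of the 10 genes rose and 1 fell by the 2-fold rule, against 9.28% and 5.21% of all genes. In MK25-treated cells 3 rose (*TRIB3*, *NUPR1* and *VLDLR*) and 1 fell, against 8.56% and 5.34%. The gene that fell was *CHAC1* in both. The median log2 fold change of the 10 genes was 1.22 in VX745 and 0.82 in MK25. In MK25, *ATF4* (0.88), *ATF3* (0.76), *DDIT3* (0.89) and *CEBPG* (0.64) were higher in ischemic culture with adjusted p of at most 4.74e-07, but under 2-fold. With no limit on the fold, 8 of 10 genes passed in MK25, as did 67.2% of all genes. *DDIT3* in MK25 rose to 1.02, past the limit, without the first regular MK25 library. In VX745, *DDIT3* was also just under the limit (log2 fold change 0.96, SE 0.08), and *CHAC1* fell by 1.04, which was 0.93 without the second ischemic and 0.97 without the first regular VX745 library. Of the 32 other targets, 27 were higher and 1 lower in VX745, and 21 were higher and none lower in MK25.

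**Figure D3:**
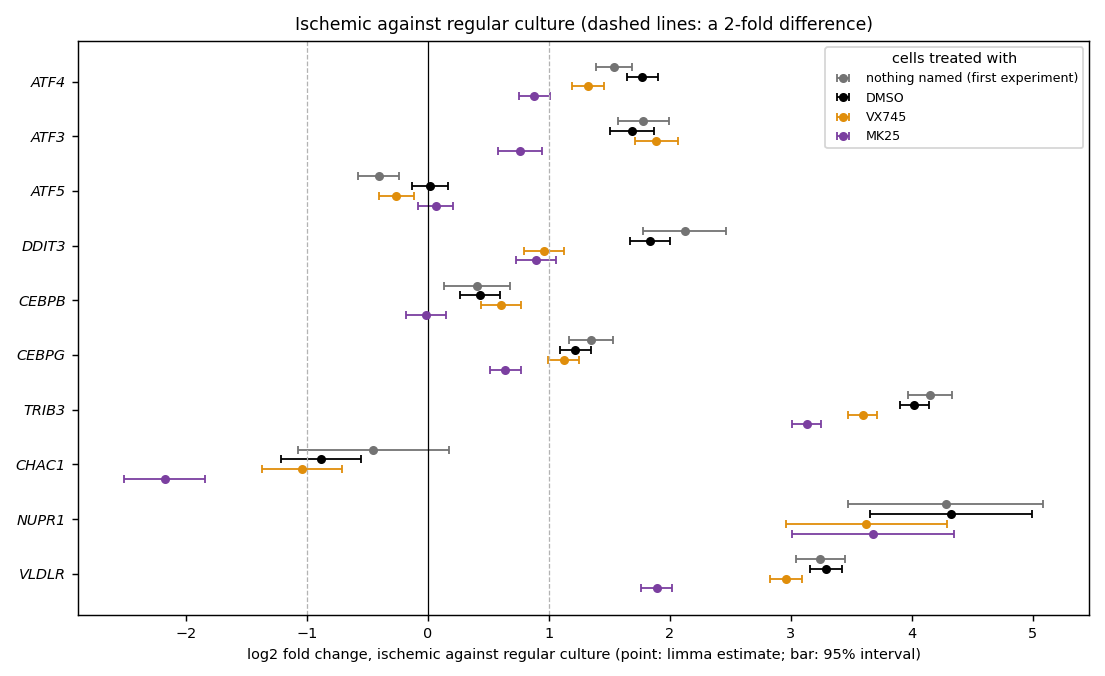
Log2 fold changes of ischemic against regular culture are plotted for the 10 genes, with limma estimates as points and 95% intervals as bars, and the dashed lines mark a 2-fold difference. Purple points (MK25) lie left of black points (DMSO) for *ATF4*, *ATF3*, *DDIT3*, *CEBPB*, *CEBPG*, *TRIB3*, *CHAC1*, *NUPR1* and *VLDLR*.

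These differences in the ischemic response were tested as interactions of inhibitor and culture, in which a negative value means a smaller ischemic rise, or a larger fall, than in DMSO. For MK25, 8 of the 10 genes had a negative interaction with an adjusted p under 0.05 and none a positive one, against 13.9% and 10.5% of all genes. For VX745, 4 had a negative interaction (*ATF4*, *DDIT3*, *TRIB3* and *VLDLR*) and none a positive one, against 6.0% and 5.78% of all genes. Both interactions use the same DMSO libraries, so their values are not independent. *ATF4* had −0.89 (SE 0.09, adjusted p = 2.36e-06) for MK25 and −0.45 (SE 0.09, adjusted p = 0.00413) for VX745. *DDIT3* had −0.95 (SE 0.11) and −0.88 (SE 0.11), *TRIB3* −0.89 (SE 0.08) and −0.43 (SE 0.08), and *VLDLR* −1.40 (SE 0.09) and −0.33 (SE 0.09). Under quantile normalization *DDIT3* alone kept its VX745 interaction, and *ATF4*, *TRIB3* and *VLDLR* had −0.16, −0.21 and −0.24 (adjusted p = 0.269, 0.109 and 0.109). *VLDLR* also lost it in 6 of the 8 fits that left out a library (adjusted p = 0.0622 to 0.0917).

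*ATF3* had an interaction of −0.93 (SE 0.12, adjusted p = 4.41e-05) with MK25 and of 0.20 (SE 0.12, adjusted p = 0.304) with VX745. *CEBPG* (−0.58), *CEBPB* (−0.45) and *CHAC1* (−1.29) also passed for MK25 and not for VX745 (−0.09, 0.17 and −0.16). Whether the interactions of the inhibitors differ from each other was not tested. *ATF5* (0.05, 95% interval −0.16 to 0.25) and *NUPR1* (−0.64, 95% interval −1.59 to 0.30) did not pass for MK25. Without the second regular DMSO library the *NUPR1* interaction was −1.19 and passed (adjusted p = 0.0407), and over all left-out libraries it ranged from −1.19 to −0.0990. Of the 32 other targets, 25 had a negative and 1 a positive interaction with MK25 (median −0.70), against 13.9% and 10.5% of all genes. With VX745, 13 had a negative and none a positive one (median −0.24), against 6.0% and 5.78% of all genes. *SESN2*, a stress-induced regulator of mTORC1, had −1.77 and *DDIT4* −1.60 for MK25, and *DDIT4* had −0.85 for VX745.

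An interaction joins the effect of an inhibitor in ischemic culture with its effect in regular culture, and these were compared with DMSO separately. In ischemic culture a 1.5-fold limit was used. MK25 lowered *ATF3* and raised *NUPR1*, so that 1 gene of 10 fell and 1 rose, against 2.65% and 7.02% of all genes. VX745 lowered *DDIT3*, and none of the 10 rose, against 0.906% and 4.35% of all genes. Both inhibitors are compared with the same 2 DMSO libraries.

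*DDIT3* in ischemic culture had 5.63 and 5.64 with VX745, 6.22 and 6.10 with MK25, and 6.49 and 6.58 with DMSO. The groups were in this order with no overlap. VX745 lowered it 1.86-fold (log2 fold change −0.90, SE 0.08, adjusted p = 7.15e-07), and MK25 gave −0.37 (SE 0.08, adjusted p = 0.00111), under the limit. Between the inhibitors the difference was 0.52 (SE 0.08, adjusted p = 1.21e-04). For *ATF3* DMSO was again highest, but the inhibitors were in the other order, with 4.39 and 4.45 in MK25, 5.23 and 5.18 in VX745, and 5.31 and 5.50 in DMSO. MK25 lowered it 1.97-fold (−0.98, SE 0.09, adjusted p = 1.70e-07), while VX745 gave −0.20 (SE 0.09, adjusted p = 0.0839). *ATF3* was lower in MK25 than in VX745 by 0.78 (SE 0.09, adjusted p = 4.29e-06).

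*ATF4* had 9.93 and 9.97 in VX745 and 9.93 and 9.83 in MK25, all below the 10.29 and 10.31 of DMSO. The log2 differences from DMSO were −0.35 (SE 0.06, adjusted p = 4.94e-04) for VX745 and −0.42 (SE 0.06, adjusted p = 4.32e-05) for MK25, both under 1.5-fold. The inhibitors did not differ beyond their spread (−0.07, 95% interval −0.20 to 0.06). *TRIB3* was likewise below DMSO with both inhibitors, with 9.10 and 9.12 in VX745, 9.20 and 9.11 in MK25, and 9.51 and 9.57 in DMSO. Its differences from DMSO were −0.43 and −0.39 (SE 0.06 for both), and that between the inhibitors was 0.05 (95% interval −0.07 to 0.17).

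*CEBPG* had 5.94 and 6.0 in MK25 against 6.33 and 6.38 in VX745 and 6.40 and 6.45 in DMSO. MK25 differed from DMSO by −0.46 (SE 0.06, adjusted p = 1.82e-05), and VX745 by −0.07 (95% interval −0.20 to 0.06). *CEBPB* had 5.58 and 5.43 in MK25, 5.92 and 5.89 in VX745, and 5.69 and 5.92 in DMSO, with differences from DMSO of −0.30 (SE 0.08, adjusted p = 0.00581) and 0.10 (95% interval −0.07 to 0.26). *ATF5* went the other way, with 6.51 and 6.48 in MK25 and 6.08 and 6.09 in VX745, a difference between the inhibitors of 0.41 (SE 0.07, adjusted p = 4.09e-04).

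*NUPR1* had 377 and 323 reads in ischemic culture with MK25 (log2 values 3.36 and 3.21), 122 and 139 with VX745 (1.92 and 2.19), and 113 and 147 with DMSO (2.22 and 2.34). Both MK25 libraries were above the other 4. The rise over DMSO was 2.0-fold (log2 fold change 1.00, SE 0.32, adjusted p = 0.0178) and that over VX745 2.35-fold (1.23, SE 0.32, adjusted p = 0.0110). Without either ischemic DMSO or either ischemic MK25 library, the rise over DMSO was 0.92 to 1.08 and no longer passed (adjusted p = 0.0581 to 0.114). The rise over VX745 was also lost without either MK25 library or the first VX745 library (adjusted p = 0.0561 to 0.107). *CHAC1* had 2.10 and 1.80 in MK25, 2.35 and 2.12 in VX745, and 2.63 and 2.39 in DMSO. Its difference from DMSO was −0.56 (SE 0.16, adjusted p = 0.00872) with MK25, just under 1.5-fold, and −0.27 (95% interval −0.60 to 0.06) with VX745. The MK25 difference passed the limit without the second DMSO library (−0.68) or the first MK25 library (−0.71), and under quantile normalization (−0.76, adjusted p = 0.00165). *VLDLR* stayed between 6.96 and 7.08 in all 6 ischemic libraries, and the 95% intervals of both differences from DMSO lay between −0.22 and 0.04.

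Of the 32 other targets in ischemic culture, 2 fell and none rose with VX745 (median −0.21), against 0.906% and 4.35% of all genes. The 2 were *GDF15* (−1.27) and *DDIT4* (−0.82). With MK25, 5 fell and none rose (median −0.33), against 2.65% and 7.02% of all genes. The largest falls were those of *SESN2* (−1.57), the mitochondrial folate enzyme gene *MTHFD2* (−0.87) and the cystine transporter gene *SLC7A11* (−0.84). Of the 16 other bZIP genes, *XBP1* fell with VX745 (−0.68) and with MK25 (−1.17). With MK25 *BATF3* also fell (−0.65) and *CEBPD* rose (0.76). Between the inhibitors, *GDF15* (1.18) and *KLHL24* (0.79) were higher and *SESN2* (−1.16) was lower in MK25.

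Between the inhibitors in ischemic culture, 1 of the 10 genes was higher in MK25 (*NUPR1*) and 1 lower (*ATF3*), against 1.75% and 2.20% of all genes. VX745 and MK25 act on successive kinases. The study's methods name a higher concentration for MK25 than for VX745, and the labels give no dose for the sequenced cells. The effects of the inhibitors are therefore set side by side without matching of dose.

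In regular culture MK25 raised 3 of the 10 genes and lowered none, against 1.88% and 0.606% of all genes. These were *CHAC1*, *NUPR1* and *VLDLR*. *VLDLR* had 5.01 and 5.14 with MK25 against 3.79 and 3.74 with DMSO, and 4.02 and 3.99 with VX745. The MK25 libraries were more than 1 log2 unit above the DMSO libraries, a 2.48-fold rise (log2 fold change 1.31, SE 0.06, adjusted p = 7.17e-11). *CHAC1* had 4.32 and 3.93 against 3.25 and 3.54 in DMSO and 3.35 and 3.20 in VX745. It rose 1.66-fold (0.73, SE 0.16, adjusted p = 0.00545), and without the first DMSO or the first MK25 library the change was 0.59 and 0.54 (adjusted p = 0.0509 and 0.0880). *NUPR1* had 12 and 19 reads with MK25, 8 and 5 with VX745, and 3 and 7 with DMSO. By reads per library size it was 3.96 times higher in MK25 than in DMSO (exact 95% counting interval 1.89 to 9.06). The log2 fold change was 1.65 (SE 0.32, adjusted p = 0.00234), and it did not pass when only the 4 libraries compared were fitted (adjusted p = 0.114).

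**Figure D4:**
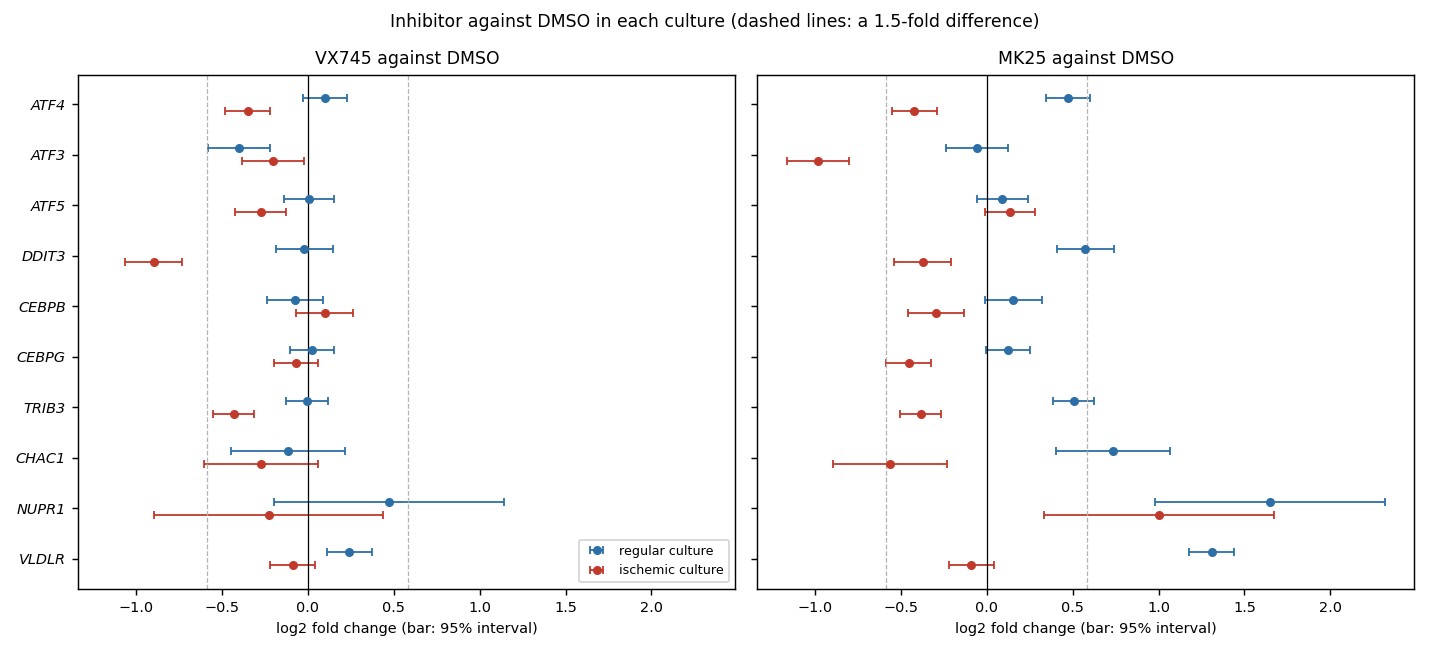
Log2 fold changes of VX745 (left) and MK25 (right) against DMSO are plotted for the 10 genes in regular (blue) and ischemic (red) culture, with limma estimates as points and 95% intervals as bars, and the dashed lines mark a 1.5-fold difference. For MK25, *ATF4*, *DDIT3*, *CEBPB*, *CEBPG*, *TRIB3*, *CHAC1* and *VLDLR* lie right of 0 in regular and left of 0 in ischemic culture.

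Of the other genes in regular culture, *ATF4* had 9.06 and 8.94 with MK25 against 8.60 and 8.45 with DMSO. *DDIT3* had 5.40 and 5.15 against 4.65 and 4.75, and *TRIB3* 6.07 and 5.98 against 5.48 and 5.56. The MK25 libraries were higher without overlap for all 3 genes, with log2 differences of 0.47 (adjusted p = 6.02e-05), 0.57 (adjusted p = 1.01e-04) and 0.51 (adjusted p = 1.14e-05), each under 1.5-fold. The share of all genes without overlap in this comparison was not counted, so the lack of overlap is a description only. *DDIT3* passed the limit without the second DMSO library (0.62) or the second MK25 library (0.70). *ATF4*, *DDIT3*, *TRIB3* and *CHAC1* thus had differences of opposite sign in the 2 cultures, each with an adjusted p under 0.05 in limma. *CEBPB*, *CEBPG* and *VLDLR* also had opposite signs, but did not reach an adjusted p under 0.05 in both cultures. *ATF3* did not differ beyond its spread (3.67 and 3.65 against 3.75 and 3.69, 95% interval −0.24 to 0.13). Of the other targets, 8 of 32 rose and none fell (median 0.31), against 1.88% and 0.606% of all genes. Their largest rises were *DDIT4* at 1.25, *JDP2* at 1.07 and *VEGFA* at 0.92. MK25 also raised 3 of the 4 hypoxia genes in regular culture, against 1.88% of all genes, and *CA9* had 91 and 111 reads against 7 and 28 in DMSO. The part of this in the results was not tested.

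VX745 in regular culture changed none of the 10 genes in limma, against 0.0642% of all genes higher and 0.0357% lower, and voom on the recovered reads gave none either. *ATF3* had a log2 difference of −0.40 (adjusted p = 0.0503) and *VLDLR* of 0.24 (adjusted p = 0.109), and both had an unadjusted p under 0.05. The share of all genes at that unadjusted limit was not counted, and the shares above are for the stricter rule. *ATF4* had 8.62 and 8.63, *DDIT3* 4.67 and 4.69, and *TRIB3* 5.55 and 5.48, and the 95% intervals of their differences from DMSO were −0.03 to 0.23, −0.19 to 0.15 and −0.12 to 0.12. *GDF15* was the 1 other target that fell, by 0.60.

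Over the 6 group means of the second experiment, the order of *ATF4* was ischemic DMSO, VX745 and MK25, then regular MK25, VX745 and DMSO. The ischemic VX745 and MK25 groups did not differ beyond their spread, nor did the regular VX745 and DMSO groups. *DDIT3* had ischemic MK25 above ischemic VX745, and regular DMSO and VX745 could not be separated. For *CHAC1* the cultures were exchanged, with regular MK25 (mean 4.12), DMSO and VX745 above ischemic DMSO, VX745 and MK25 (mean 1.95), while the order within ischemic culture was that of *ATF4*. The genes with the most similar pattern, among genes whose log2 values average 3 or more, were *CTH*, *NEAT1* and *MAP2K1* for *ATF4* (r from 0.998 to 0.999), *NAMPT*, *SLC26A6* and *WDR48* for *DDIT3* (r from 0.997 to 0.999), and *SHLD2*, *ZNF283* and *RLIG1* for *CHAC1* (r from 0.989 to 0.990). These are Pearson correlations over 6 means that fall into 2 cultures, and 2073, 1195 and 1042 genes respectively had r above 0.9, of about 10052 compared. *CTH* is also on the list of other targets.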

How the data were processed

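RNA-seq libraries of LN229 cells were made with the SMART-Seq mRNA HT and Nextera XT kits. The authors worked in Galaxy, where reads were trimmed and aligned with HISAT2 (GRCh38) and edgeR was used for differences in expression, and deposited log2 normalized CPM per gene and library, which carry a mean offset of 2.02 reads. The counting program is not given in the sources used here. Symbols came from RefSeq and matched 99.4% and 99.3% of the Entrez identifiers.

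Undoing the logarithm gave whole reads (within 0.05 of a read) for 100% of values, and so the depth of each library. The deposited log2 values were fitted with limma 3.58.1 in R 4.3.3, with 1 mean per group and a trend of the variance on expression. The variance of each gene, shared by all groups of an experiment, was moderated towards this trend (empirical Bayes). A standard error can therefore be smaller than a gene's own 2 libraries would give. The 4 libraries of the first and the 12 of the second experiment were fitted separately. Tests were two-sided, Benjamini-Hochberg adjusted over all genes, and called at an adjusted p under 0.05 with a fold of at least 2 (ischemia), 1.5 (inhibitors) or any size (interactions). The tests were checked on simulated data. The study's own edgeR test on counts was not run, and the deposited log2 values were tested instead.

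The members and lists were chosen with earlier results of these data known. The rule for naming genes was all 10 members, up to 3 of the largest changes among called genes of each list, and the 3 genes most correlated with *ATF4*, *DDIT3* and *CHAC1*. The hypoxia genes, *ASNS*, *JDP2*, *AARS1*, *CARS1*, *FGF21*, *GFAP*, *SOX2*, *VIM* and *CD68* were named where a sequence or a marker check turned on them. The alternatives were quantile normalization, median centring, a mean of at least 1 CPM, no variance trend, no fold threshold, only the groups compared, voom on recovered reads, the replicate number as a block, and each library left out in turn. Same-numbered libraries share only a number, as the labels name no shared culture or day. Figures were made with Python 3.11.15 and matplotlib 3.10.9.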

Additional observations from a re-analysis of the deposited data

Results flagged for a closer look

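The effect of an inhibitor differed between regular and ischemic culture for 12 pairs of gene and inhibitor, by the interaction term in limma. These tests cover 10 genes and 2 inhibitors, adjusted over all genes, and both inhibitors share the DMSO libraries.

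For MK25 the interactions on the log2 scale were −1.40 for *VLDLR*, −1.29 for *CHAC1*, −0.95 for *DDIT3*, −0.93 for *ATF3*, −0.89 for *ATF4*, −0.89 for *TRIB3*, −0.58 for *CEBPG* and −0.45 for *CEBPB*. Most of the *VLDLR* value came from regular culture, where MK25 changed it by 1.31, against −0.09 in ischemic culture. For *ATF3* it came from ischemic culture (−0.98, against −0.05). *ATF4* differed from DMSO by 0.47 in regular and by −0.42 in ischemic culture. For VX745 the interactions were −0.88 for *DDIT3*, −0.45 for *ATF4*, −0.43 for *TRIB3* and −0.33 for *VLDLR*.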

How the results depend on the processing

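No called difference turned sign under any alternative. Apart from fits without a library, the counts of called members stayed within 1.5 times except as follows. Quantile normalization left 1 VX745 interaction instead of 4, and the *VLDLR* one was also lost with no variance trend (limma adjusted p = 0.0586) and voom (0.0509). With no fold threshold, 8 members passed for ischemia in MK25 (4 with it), 4 for VX745 in ischemic culture (1), 8 for MK25 in ischemic culture (2), 6 for MK25 in regular culture (3) and 6 between the inhibitors (2). The shares of all genes passing were 67.2%, 28.9%, 41.7%, 12.2% and 18.4%. The direction turned only for small differences that were not called. Under quantile normalization *ATF5* had −0.0309 for ischemia in DMSO, *TRIB3* 0.0149 for VX745 in regular culture and *VLDLR* 0.0023 between the inhibitors. Under median centring the last 2 were 0.0014 and 0.0066, and with voom *ATF5* had −0.00058 for VX745 in regular culture.

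With 1 library left out at a time (the lone library of a group being assumed to vary like the others), the number of called members went from 1 to 2 for MK25 in ischemic culture and between the inhibitors, from 2 to 4 for MK25 in regular culture and from 3 to 5 for the VX745 interactions. These log2 differences turned sign. *CHAC1* ranged from −1.06 to 0.16 for ischemia in the first experiment, and *ATF5* from −0.0889 to 0.124 for ischemia in DMSO. *CEBPB* ranged from −0.0920 to 0.0553 for ischemia in MK25 and from −0.0201 to 0.215 for VX745 in ischemic culture. For VX745 in regular culture the ranges were −0.102 to 0.112 for *ATF5*, −0.0256 to 0.0734 for *CEBPG*, −0.262 to 0.0303 for *CHAC1*, −0.0659 to 0.0253 for *DDIT3*, −0.0743 to 1.02 for *NUPR1* and −0.0459 to 0.0365 for *TRIB3*. Between the inhibitors *TRIB3* ranged from −0.0029 to 0.0944 and *VLDLR* from −0.0142 to 0.0065. *ATF5* ranged from −0.0165 to 0.197 for MK25 in regular culture and from −0.0611 to 0.152 for its interaction. The cause of these changes was not tested.

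The replicate block changed no call of a member, with 7, 7, 7 and 4 called for ischemia in the first experiment, DMSO, VX745 and MK25, and 8 and 4 for the interactions of MK25 and VX745. Over 15 pairs of groups in the second experiment, the deviations of same-numbered libraries correlated between −0.27 and 0.32. Quantile normalization moved the split of all genes for MK25 in ischemic culture from 985 higher and 371 lower to 629 and 486, for VX745 from 610 and 127 to 322 and 192, and for VX745 in regular culture from 9 and 5 to 7 and 7. With 2 libraries per group and few *NUPR1* reads in regular culture, its fold is the least precise.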
